A study of Mus musculus with 25 samples.

Results

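The comparison described here is wheel running against cage activity in wild type (WT) mouse Achilles tendon. Its members are the 13 of the 25 RNA-seq libraries of the series whose titles read wild type: 6 libraries of wheel runners (3 female, 3 male) and 7 of mice kept at cage activity (4 female, 3 male). All mice were 3 months old. The other 12 libraries are from AMPKcKO mice, a conditional knock-out aimed, per the series title, at AMPKα1 (6 runners and 6 cage mice), and they serve below only to set the WT response beside that of a second genotype. The strain, the duration and distance of running, the time of day of collection and the Cre driver of the knock-out are not given in the sources used here. The titles number the libraries without saying that each came from a separate mouse, so the p-values measure the spread between libraries.

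The Achilles tendon joins the calf muscles to the heel bone and carries the load of each stride. Its resident cells, the tenocytes, lie in rows between collagen I fibrils and sense stretch through integrins, ion channels and the cytoskeleton. Running raises the number of loading cycles and the energy use of the attached muscle, and genes of matrix turnover, mechanosensing, metabolism and the circadian clock are commonly examined after it.

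Tenocyte genes were present in both groups. Per transcript length (FPKM, the mean of cage and then of runner libraries), Col1a1, the main collagen I chain, stood at 1312 and 914, Tnmd (tenomodulin) at 44.2 and 36.1, Mkx (mohawk) at 24.7 and 18.4 and Scx (scleraxis) at 27.8 and 29.8. Skeletal muscle transcripts were abundant as well. Myl2, a light chain of slow fibre myosin, had 2609 and 3903 FPKM. Genes of fast and slow muscle fibres (34 genes) took 6.45% ± 1.82 of the counts in cage libraries and 7.88% ± 1.74 in runners (SD, n = 7 and 6), a difference that did not pass a two-sided exact permutation test (p = 0.186, also 0.186 after adjustment over the 2 shares tested). WT cage female replicate 1 held 2.66% and every other WT library between 5.18% and 10.2%. Mitochondrial ribosomal RNA took 23.6% ± 3.97 and 20.4% ± 3.05 of the counts (exact permutation p = 0.132, adjusted 0.186). Library totals ran from 13193228 to 45724243 counts. In a principal component analysis of the 13 libraries, WT runner female replicate 2 lay at 127 on the second component and WT runner male replicate 3 at -129 on the first, away from the rest, and WT runner male replicate 2 carried eGFP counts (119 CPM) that no other WT library had above 0.02 CPM. Below, the number of calls is also given without the 2 runners that stood apart and without the library with eGFP. In bulk tissue, fewer cells of a type and less RNA per cell cannot be told apart.

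Of 19155 genes tested, 25 differed between WT runners and WT cage mice at an adjusted p under 0.05, which is 0.131% of all genes. The adjusted p throughout is from edgeR's quasi-likelihood test with Benjamini-Hochberg adjustment over all 19155 genes, and log2 fold changes (± SE) are runners minus cage, so positive values are higher in runners. 20 genes rose (0.104% of all genes) and 5 fell (0.0261%). In 20 of the 25 the 6 runner libraries and the 7 cage libraries did not overlap at all, 16 of them higher and 4 lower in runners. Over all genes, such a clean separation occurred for 104 (0.543%). At an unadjusted p under 0.05 there were 1866 genes (9.74%), 888 higher (4.64%) and 978 lower (5.11%). The median log2 fold change over all genes was 0.003.

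**Figure D1:**
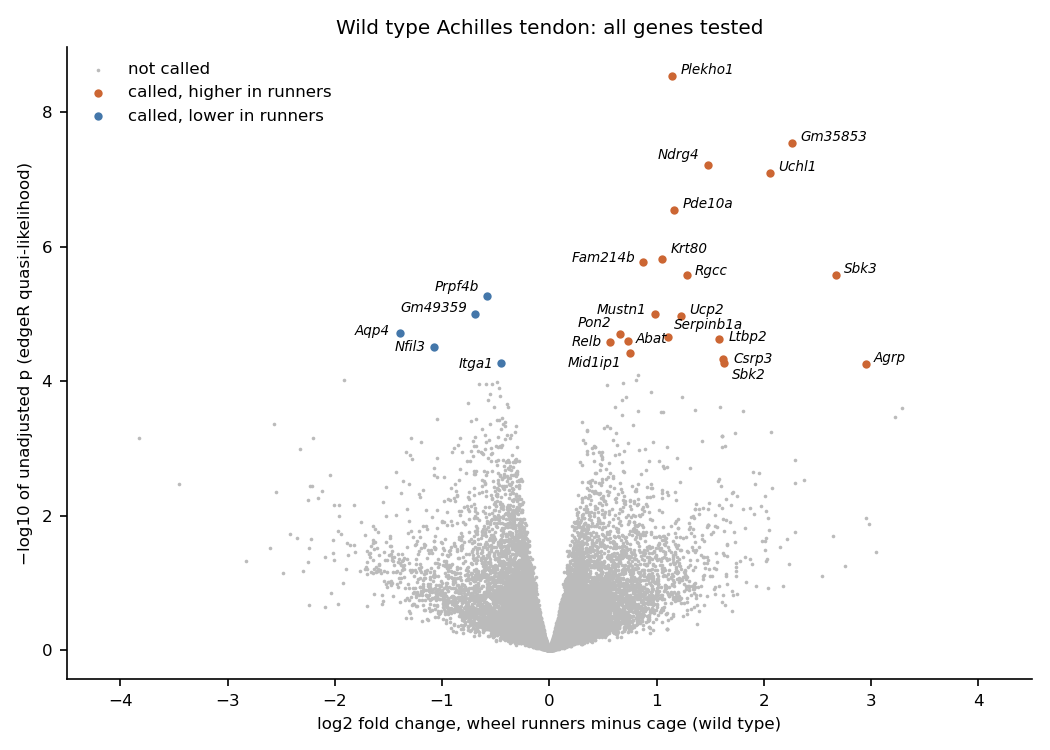
Each point is 1 of the 19155 genes tested in WT tendon, with the log2 fold change of runners minus cage on the x axis and −log10 of the unadjusted p on the y axis. The 20 called higher genes and 5 called lower genes are named. Plekho1 has the smallest p, and Agrp (2.95), Sbk3 (2.67) and Gm35853 (2.26) have the highest fold changes among the called genes.

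The gene with the smallest p was Plekho1 (chr3:95988429-95996001, minus strand), whose product binds casein kinase 2 and restrains bone formation. Its level was 17.8, 19.3 and 21.4 CPM (lowest, median, highest) in the 7 cage libraries and 29.3, 43.2 and 57.9 CPM in the 6 runner libraries. The rise was 2.21-fold (log2 fold change 1.15 ± 0.13, adjusted p = 5.48e-05). The cage libraries lay close together and the lowest runner, female replicate 1, was still above all of them.

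Uchl1, a ubiquitin hydrolase best known from neurons (chr5:66676091-66687234, plus strand), was at 2.59, 10.5 and 12.8 CPM (lowest, median, highest) in the 7 cage libraries and 30.1, 38.01 and 50.6 CPM in the 6 runner libraries. It rose 4.15-fold (log2 fold change 2.05 ± 0.28, adjusted p = 0.00038). The lowest cage value belonged to female replicate 1, the library with little muscle RNA, and without it the log2 fold change was 1.88 (adjusted p = 0.000126). Ndrg4, a member of the N-myc downstream-regulated family known from heart and brain (chr8:95676980-95715119, plus strand), was at 8.22, 9.48 and 10.9 CPM (lowest, median, highest) in the 7 cage libraries and 16.8, 27.1 and 31.6 CPM in the 6 runner libraries. It rose with a log2 fold change 1.48 ± 0.20, adjusted p = 0.00038, and all 6 runners were above all 7 cage libraries.

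Pde10a, Rgcc and Fam214b also rose. Pde10a, a phosphodiesterase that breaks down cyclic AMP and cyclic GMP (chr17:8525372-8986648, plus strand), was at 7.14 to 12.8 CPM in cage libraries (median 11.3) and 17.9 to 37.4 in runners (median 22.04) (log2 fold change 1.17 ± 0.17, adjusted p = 0.00110). Rgcc, a regulator of cell cycle progression that responds to complement and hypoxia (chr14:79288756-79301645, minus strand), was at 50.9, 62.99 and 88.1 CPM (lowest, median, highest) in the 7 cage libraries and 93.4, 148 and 232 CPM in the 6 runner libraries. It rose 2.43-fold (log2 fold change 1.28 ± 0.21, adjusted p = 0.00554). Fam214b rose from a cage median of 15.9 to a runner median of 27.5 CPM (log2 fold change 0.88 ± 0.14, adjusted p = 0.00461). For these 3 genes, too, the lowest runner lay above the highest cage library.

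A pair of overlapping genes on chromosome 15 rose together. Krt80, an epithelial type II keratin (chr15:101347444-101370162, minus strand), was at 7.79 to 10.03 CPM in cage libraries (median 9.27) and 15.4 to 22.4 in runners (median 18.3) (log2 fold change 1.06 ± 0.17, adjusted p = 0.00461). Gm35853, annotated as an antisense RNA across the whole of Krt80 (chr15:101322888-101405834, plus strand), was at 0.614 to 1.07 CPM in cage libraries (median 0.868) and 2.52 to 5.01 in runners (median 4.55) (log2 fold change 2.26 ± 0.29, adjusted p = 0.000272). Gm35853 is a predicted gene outside the rule for named genes and is given because it was called. The strand setting of the libraries is not given in the sources used here, so reads from the shared stretch cannot be told apart between both genes. Other skin genes were not called: of 10 keratinocyte and skin markers tested, 4 had a positive fold change, the median was -0.15, and no other member was called. Their summed level was low, from 26.8 to 46.8 CPM in cage libraries (median 31.6) and from 41.00 to 49.1 CPM in runners (median 47.2).

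**Figure D2:**
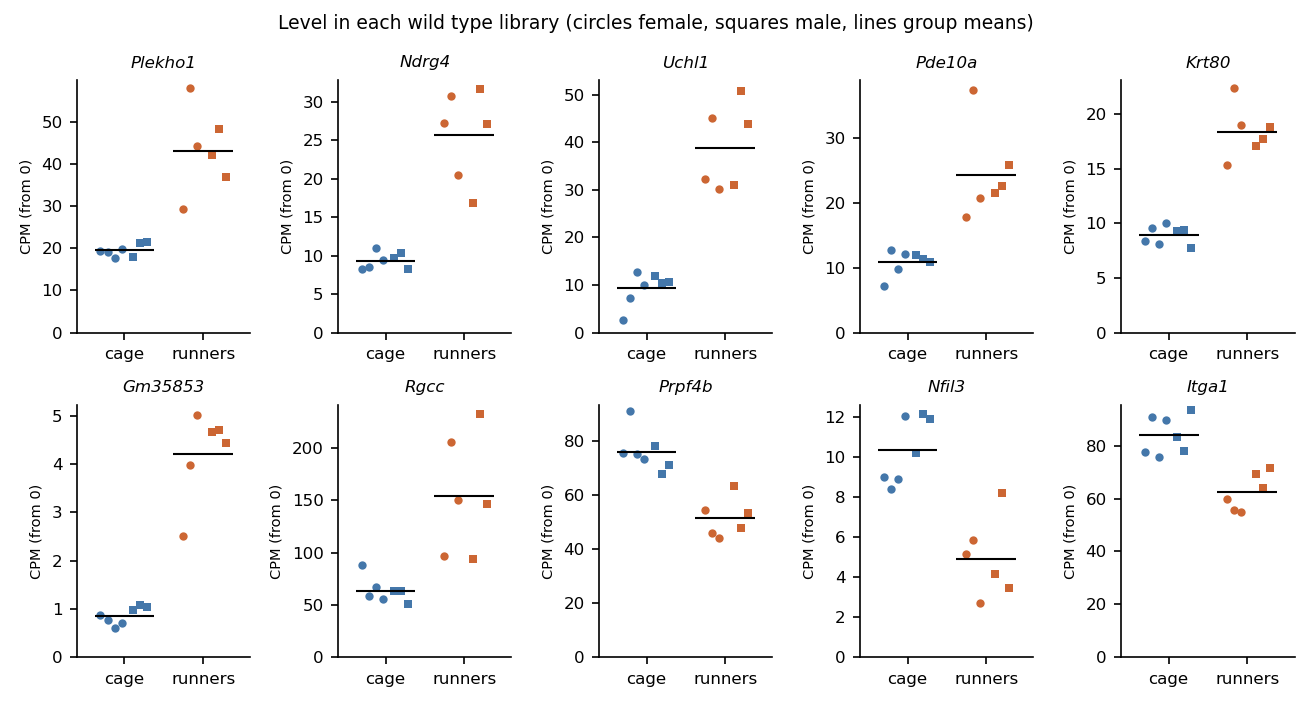
CPM in each WT library (y axes, each from 0) for 10 called genes, with cage libraries in blue, runners in orange, circles for females, squares for males and lines at group means. For all 10 genes the orange and blue points do not overlap. Prpf4b, Nfil3 and Itga1 are lower in runners and the others are higher.

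Genes listed for the response of striated muscle to stretch and load held the most calls of any list. The gene lists were chosen with earlier results of these data known, so this count is not a test of the list. The list of muscle stretch and load genes held 19 tested members, and 4 of them were called, all higher (Sbk3, Sbk2, Csrp3 and Mustn1), against 0.104% of all genes called higher. Of the 19, 11 had a positive fold change, with a median of 0.16. Csrp3, the muscle LIM protein of the Z-disc (chr7:48830398-48848033, minus strand), was at 83.5, 206 and 257 CPM (lowest, median, highest) in the 7 cage libraries and 301, 599 and 847 CPM in the 6 runner libraries. It rose 3.06-fold (log2 fold change 1.62 ± 0.33, adjusted p = 0.0402). Mustn1, a small nuclear protein of the musculoskeletal system (chr14:30879200-30881610, plus strand), was at 24.6 to 40.9 CPM in cage libraries (median 35.5) and 48.7 to 98.6 in runners (median 66.05) (log2 fold change 0.98 ± 0.18, adjusted p = 0.0157). In both genes every runner was above every cage library.

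Sbk2 and Sbk3, neighbouring genes of the SH3-binding domain kinase family known from striated muscle, rose as well. Both lie on the minus strand of chromosome 7 (Sbk2 chr7:4940512-4964406, Sbk3 chr7:4965260-4971168). Sbk2 was at 5.37, 9.72 and 13.4 CPM (lowest, median, highest) in the 7 cage libraries and 14.9, 30.04 and 42.9 CPM in the 6 runner libraries (log2 fold change 1.63 ± 0.34, adjusted p = 0.0417), with no overlap. Sbk3 was at 0.443 to 1.73 CPM in cage libraries (median 0.989) and 1.42 to 10.6 in runners (median 7.98) (log2 fold change 2.67 ± 0.45, adjusted p = 0.00554). For Sbk3 the groups overlapped, because WT runner female replicate 1 (1.42 CPM) lay below the highest cage library (1.73), while the other 5 runners were above every cage library. The span of Sbk2 overlaps Ssc5d on the other strand, whose own log2 fold change was -0.20 ± 0.20 (adjusted p = 0.807).

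Another stretch-responsive gene, Ankrd2, was higher in every runner (126 to 352 CPM in cage libraries (median 282) and 386 to 675 in runners (median 470.4)) but did not pass the test (log2 fold change 0.96 ± 0.31, adjusted p = 0.253). It was picked out after its values were seen. The other members, among them the cardiac-type Ankrd1, Xirp1, Xirp2, Flnc and the regulators Myod1 and Myog, were not called either.

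Muscle fibre genes also had mostly positive fold changes. Of 21 fast fibre genes 17 and of 13 slow fibre genes 12 had a positive fold change, with medians of 0.21 and 0.23, and none was called. The summed slow fibre level ran from 9162 to 36937 CPM in cage libraries (median 29203) and from 18293 to 45960.4 CPM in runners (median 33729.5). The summed fast fibre level ran from 12354 to 52238 CPM in cage libraries (median 42768) and from 22438 to 106736 CPM in runners (median 40474), with the median of the runners below that of the cage libraries. Among structural genes, Myl2 had a log2 fold change of 0.52 ± 0.32, Tnni1 0.56 ± 0.34, Myl1 0.56 ± 0.35 and Myh1 -0.77 ± 0.49, with adjusted p from 0.620 to 0.633. With the mean log2 level of the muscle genes as a covariate, all 25 calls were kept, and the log2 fold changes were 1.80 (adjusted p = 0.000264) for Csrp3, 1.69 (adjusted p = 6.03e-05) for Sbk2, 2.84 (adjusted p = 0.000819) for Sbk3 and 1.02 (adjusted p = 0.000756) for Mustn1. Without WT cage female replicate 1, which had the lowest Csrp3, Sbk2, Sbk3 and Mustn1 of all cage libraries, they were 1.49 (adjusted p = 0.0699), 1.53 (adjusted p = 0.0816), 2.51 (adjusted p = 0.0164) and 0.92 (adjusted p = 0.0359), so that Csrp3 and Sbk2 were no longer called. Csrp3 and Sbk2 were each called in only 2 of the 13 fits that left out 1 WT library, so their loss was not particular to that library.

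**Figure D3:**
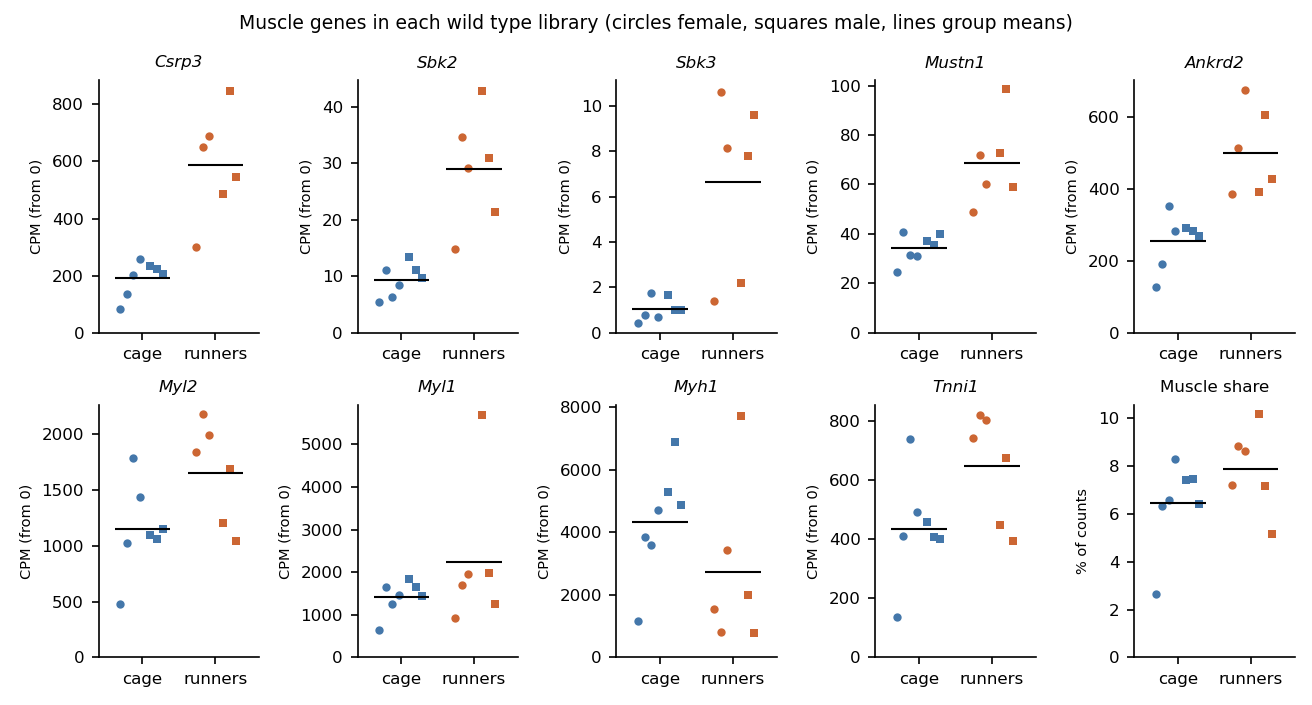
CPM in each WT library (y axes from 0) for 5 genes of the stretch and load list (top row), 4 muscle fibre genes and, last, the share of counts in 34 fast and slow fibre genes. Cage libraries are blue, runners orange, females circles, males squares, and lines are group means. Csrp3, Sbk2, Mustn1 and Ankrd2 separate the groups, whereas Myl2, Myl1, Myh1, Tnni1 and the muscle share (6.45% and 7.88% on average) overlap between them.

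The sequences just before the RefSeq starts of the 4 called genes of the stretch and load list are shown because these genes moved together. Each is the 250 bases before the RefSeq start of the gene on GRCm38, 5′ to 3′ on the gene's own strand, in lower case (Csrp3 has 2 RefSeq starts, and the upstream one is shown). The RefSeq starts of Sbk3 and Mustn1 lie inside the gene spans given above, which are GENCODE's. Most of the Sbk3 window and part of the Mustn1 window therefore fall within those spans. Capitals mark matches to motifs searched on both strands: the E-box CAGCTG, the TEAD motif CATTCC or its reverse GGAATG, and the CArG box and MEF2 motif by their consensus.
Csrp3 (chr7:48848052-48848301, minus strand): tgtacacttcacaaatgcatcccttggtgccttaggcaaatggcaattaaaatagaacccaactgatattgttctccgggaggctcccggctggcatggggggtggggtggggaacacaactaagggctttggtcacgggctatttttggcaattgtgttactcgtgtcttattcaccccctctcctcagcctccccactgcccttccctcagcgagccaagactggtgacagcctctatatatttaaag
Mustn1 (chr14:30879007-30879256, plus strand): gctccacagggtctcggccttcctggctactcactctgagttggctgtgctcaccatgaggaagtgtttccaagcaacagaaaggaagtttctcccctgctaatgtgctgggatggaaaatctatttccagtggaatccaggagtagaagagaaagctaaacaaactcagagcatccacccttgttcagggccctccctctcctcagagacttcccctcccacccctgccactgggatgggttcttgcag
Sbk2 (chr7:4964407-4964656, minus strand): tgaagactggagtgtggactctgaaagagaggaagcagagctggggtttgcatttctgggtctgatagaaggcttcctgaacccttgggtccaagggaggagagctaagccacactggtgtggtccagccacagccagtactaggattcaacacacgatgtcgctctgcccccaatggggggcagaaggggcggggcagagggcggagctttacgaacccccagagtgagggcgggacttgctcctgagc
Sbk3 (chr7:4970962-4971211, minus strand): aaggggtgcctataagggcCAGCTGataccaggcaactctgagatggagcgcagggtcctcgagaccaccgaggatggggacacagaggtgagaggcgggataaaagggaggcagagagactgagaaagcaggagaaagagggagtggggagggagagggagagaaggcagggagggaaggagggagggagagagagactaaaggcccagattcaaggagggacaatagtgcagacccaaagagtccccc

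Of these 4 windows, that of Sbk3 alone held a match, a CAGCTG whose first base lies 231 bases upstream of the RefSeq start. Over all 32851 RefSeq promoters of the same length, CAGCTG occurred in 13%, the TEAD motif in 12.6%, the MEF2 motif in 2.92% and the CArG box in 1.47%. The 18 called genes with an entry had 29 promoters, of which 7 held CAGCTG (1 each of Gm35853, Itga1, Nfil3, Pde10a, Pon2, Sbk3 and Ucp2) and 3 the TEAD motif. Counted per gene over any of its promoters, these were 7 and 2 of the 18 genes, where 14.7% and 14.4% of all 27025 genes with an entry held them. The called genes had more promoters per gene than all genes, which raises a count over any promoter. The E-box CACGTG was held by 2 called genes (Gm35853 and Ndrg4), where 6.86% of all genes with an entry held it. No called gene with an entry held the CArG box, the MEF2 motif, the cyclic AMP response element TGACGTCA (1.55% of all promoters) or the D-box TTATGTAA that Nfil3 and Dbp bind (0.819%), on either strand. The 4 windows shown ranged from 51.2% to 58.8% G and C, where the median of all promoters was 52.4%. These matches describe letters in a window and not bound sites.

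Ucp2, Pon2, Abat and Mid1ip1 were called higher as well. Ucp2, a carrier of the inner mitochondrial membrane (chr7:100493337-100502020, plus strand), was at 21.9, 44.5 and 54.4 CPM (lowest, median, highest) in the 7 cage libraries and 60.04, 90.9 and 129 CPM in the 6 runner libraries. It rose 2.34-fold (log2 fold change 1.23 ± 0.23, adjusted p = 0.0159), and the groups did not overlap. Pon2, a lactonase with antioxidant activity, was at 18.3 to 24.1 CPM in cage libraries (median 20.1) and 26.1 to 42.2 in runners (median 29.3) (log2 fold change 0.66 ± 0.13, adjusted p = 0.0250). Abat, the transaminase that breaks down GABA, was at 7.29 to 12.1 CPM in cage libraries (median 9.57) and 12.5 to 17.8 in runners (median 15.5) (log2 fold change 0.73 ± 0.14, adjusted p = 0.0265). Mid1ip1, which helps acetyl-CoA carboxylase assemble into active filaments, was at 11.1 to 21.8 CPM in cage libraries (median 17.9) and 23.8 to 35.8 in runners (median 27.7) (log2 fold change 0.75 ± 0.15, adjusted p = 0.0345). In each of these, every runner exceeded every cage library.

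Agrp, the agouti-related neuropeptide of the hypothalamus, had the highest fold change of all called genes at a very low level. It was at 0.116 to 1.62 CPM in cage libraries (median 0.438) and 2.04 to 7.55 in runners (median 3.43) (log2 fold change 2.95 ± 0.61, adjusted p = 0.0417). Its cage values came down to the level of a few reads per library. The highest runner value, 7.55 CPM, was that of male replicate 2, the library with eGFP. Agrp was called in 3 of the 13 fits that left out 1 WT library, and was not called without male replicate 2. The annotated span of Agrp (chr8:105566698-105637393, minus strand) covers Ripor1 and overlaps the start of Ctcf, both on the other strand, whose log2 fold changes were 0.38 ± 0.14 and -0.20 ± 0.09 (adjusted p = 0.321 and 0.433). On the same strand it overlaps Gm45855 (mean 7.50 CPM in cage libraries and 8.65 in runners, 0.27 ± 0.27, adjusted p = 0.808). It also overlaps Gm5914 there (1.05 and 1.01 CPM, 0.0069 ± 0.36, adjusted p = 0.997). Both are predicted genes outside the rule for named genes. Mid1ip1 and Agrp fall outside the rule for named genes and are given because they were called.

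The metabolic lists held few calls. Of 32 genes of fatty acid uptake and oxidation, 28 had a negative fold change, with a median of -0.19, where 50.4% of all genes were positive, and Ucp2 was the 1 member called. In the list of pyruvate dehydrogenase and its regulators, the kinase Pdk4, which turns the complex off when fat is burnt, was at 272 to 1062 CPM in cage libraries (median 562) and 151 to 530.1 in runners (median 214) (log2 fold change -1.14 ± 0.44, adjusted p = 0.373), and the phosphatase Pdp1 had a log2 fold change of 0.47 ± 0.17 (adjusted p = 0.351). Ppargc1a, the coactivator of mitochondrial biogenesis, had -0.76 ± 0.26 (adjusted p = 0.298).

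Glucose uptake and glycolysis genes were positive for 20 of 27 with a median of 0.13, although the members with the smallest p, the Rab-GAP Tbc1d4 (-0.73 ± 0.20, adjusted p = 0.158) and the lactate carrier Slc16a1 (-0.45 ± 0.18, adjusted p = 0.411), were lower. Nuclear subunits of oxidative phosphorylation were positive for 39 of 60, with a median of 0.05, and mRNAs encoded by mitochondrial DNA for 4 of 13, with a median of -0.10. Cholesterol genes were positive for 21 of 26 with a median of 0.15, for example Fdps (0.34 ± 0.12, adjusted p = 0.307), a synthase of the mevalonate pathway. Genes of fatty acid synthesis had a median of 0.03, and those encoding AMPK subunits and their upstream kinases 0.03. None of these genes was called.

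**Figure D4:**
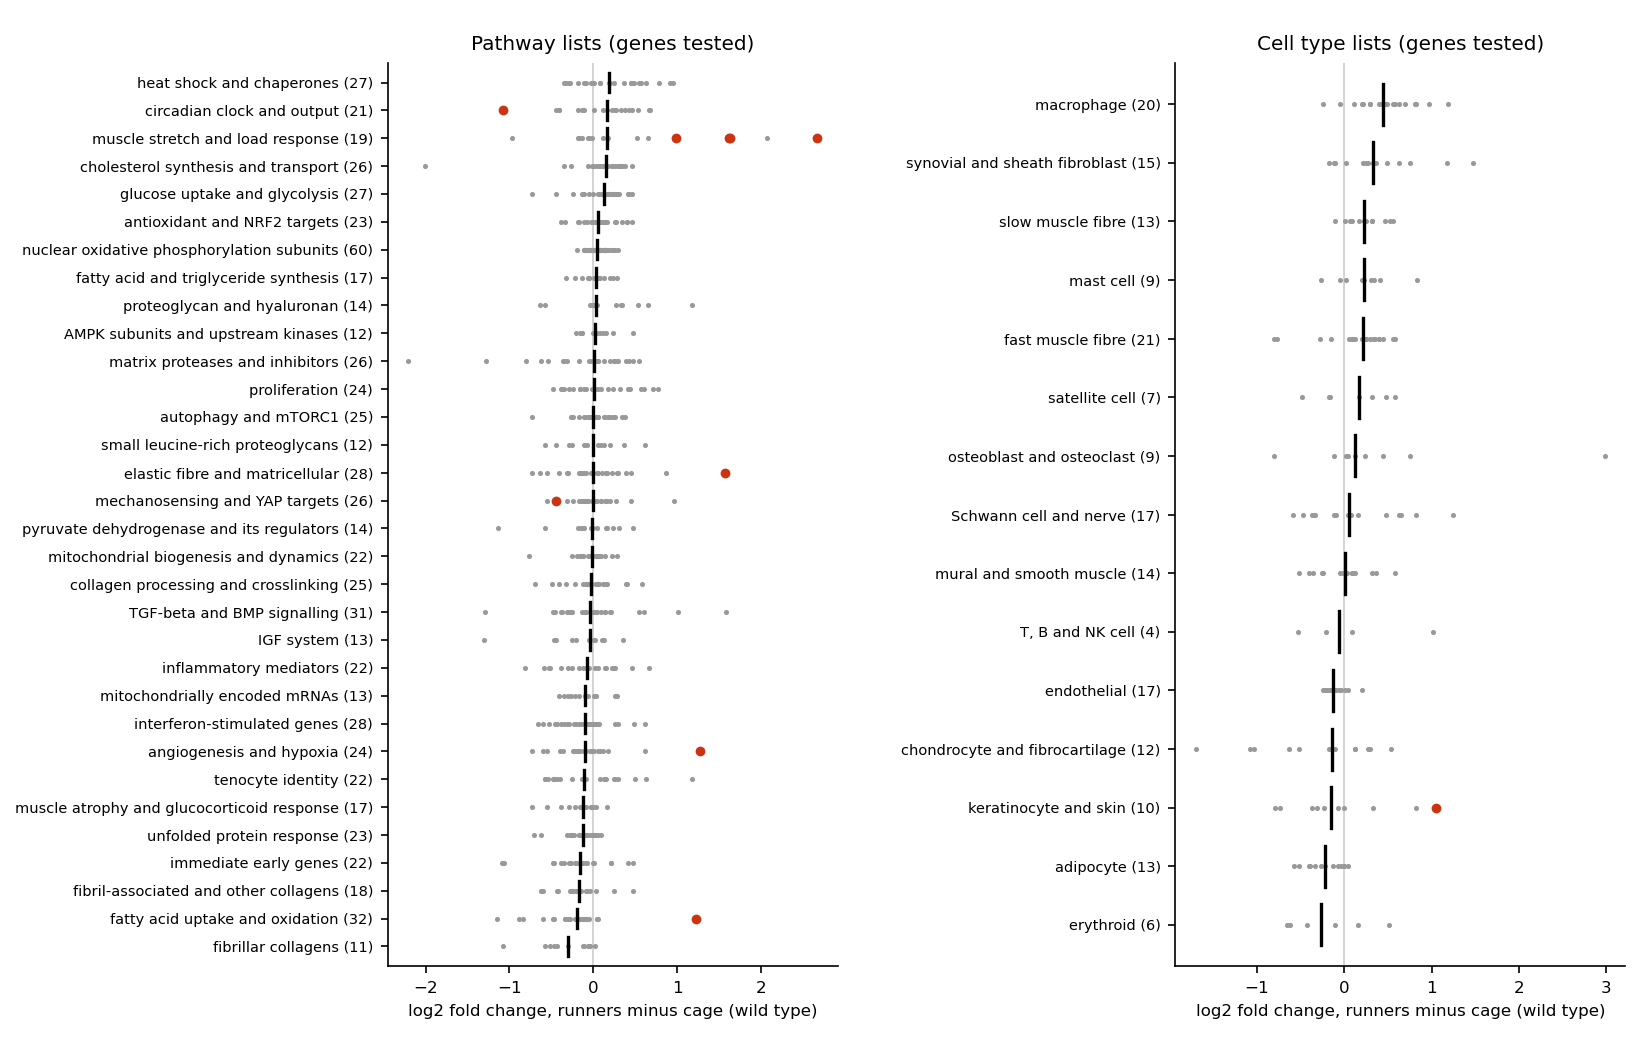
Log2 fold changes in WT tendon (x axis, runners minus cage) of every tested member of the gene lists with at least 3 tested genes, pathways on the left and cell type markers on the right. Black bars are list medians, red points the members that were called, and the number of genes tested is in brackets. The highest median is that of the macrophage markers (0.45) and the lowest that of the fibrillar collagens (-0.30).

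The collagen genes did not pass the test in runners. Of 11 fibrillar collagen genes, 10 had a negative fold change, with a median of -0.30, and none was called. Col1a1 was at 1849 to 13638 CPM in cage libraries (median 7116) and 2744 to 5934 in runners (median 5433) (log2 fold change -0.58 ± 0.31, adjusted p = 0.575), and the ranges overlapped. Col11a2, a minor chain of cartilage-type fibrils, had the smallest p of the list (74.4 to 221 CPM in cage libraries (median 115) and 23.7 to 100.1 in runners (median 51.3), log2 fold change -1.07 ± 0.32, adjusted p = 0.206). Of 18 other collagens, 15 were negative with a median of -0.17, the smallest p being those of Col8a1 (0.47 ± 0.20, adjusted p = 0.420) and Col22a1 (-0.60 ± 0.30, adjusted p = 0.532), the latter a collagen of the muscle-tendon junction. Median log2 fold changes were -0.02 for collagen processing and crosslinking, -0.0034 for small leucine-rich proteoglycans (smallest p for Lum, 0.61 ± 0.20, adjusted p = 0.265) and 0.03 for proteoglycans and hyaluronan (Vcan (0.66 ± 0.24, adjusted p = 0.343)).

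Calls on the matrix side were Ltbp2 and Itga1. Ltbp2, a latent TGF-β binding protein that sits on elastic microfibrils (chr12:84783212-84876532, minus strand), was at 7.51 to 15.6 CPM in cage libraries (median 9.24) and 14.4 to 54.97 in runners (median 30.5) and rose 2.98-fold (log2 fold change 1.58 ± 0.31, adjusted p = 0.0261). Runner female replicate 2, at 14.4 CPM, lay below the highest cage library, male replicate 1 at 15.6. The list of elastic fibre and matricellular genes was otherwise even, with 14 of 28 positive. Itga1, the α1 chain of a collagen-binding integrin (chr13:114953096-115101964, minus strand), fell from 75.8 to 93.5 CPM in cage libraries to 54.7 to 71.5 in runners (log2 fold change -0.45 ± 0.09, adjusted p = 0.0417). It was the 1 called member of 26 mechanosensing genes and YAP targets, of which 13 were positive.

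Among matrix proteases, Adamts9 was lower in every runner (31.9 to 63.7 CPM in cage libraries (median 38.3) and 22.4 to 31.3 in runners (median 27.8)) without passing the test (log2 fold change -0.62 ± 0.17, adjusted p = 0.158), and Adamts8 ranged widely (2.34 to 69.9 CPM in cage libraries (median 32.7) and 2.45 to 15.6 in runners (median 8.43), log2 fold change -2.21 ± 0.57, adjusted p = 0.144). Of 31 genes of TGF-β and BMP signalling none was called. The smallest p were those of Crim1 (-0.45 ± 0.12, adjusted p = 0.151), which tethers BMPs at the cell surface, and Nog (-1.29 ± 0.36, adjusted p = 0.162), the BMP antagonist noggin. In the IGF system, Igf1 had -0.47 ± 0.22 and Igf2 0.35 ± 0.16, with adjusted p = 0.479 and 0.472. The tenocyte identity list had a median of -0.11 with 10 of 22 positive and no call. Its smallest p were those of Prg4, the boundary lubricant lubricin (log2 fold change 1.18 ± 0.39, adjusted p = 0.268), and Tppp3, a marker of sheath cells (log2 fold change 0.63 ± 0.21, adjusted p = 0.274).

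The circadian list held 1 called member. Nfil3, a bZIP repressor of clock output genes (chr13:52967209-52981073, minus strand), was at 8.42, 10.2 and 12.2 CPM (lowest, median, highest) in the 7 cage libraries and 2.74, 4.66 and 8.21 CPM in the 6 runner libraries. It fell by 1.07 ± 0.21 on the log2 scale (adjusted p = 0.0292), and all runners were below all cage libraries. The activator Dbp, which binds the same D-box sequence, was at 48.4 to 82.1 CPM in cage libraries (median 53.1) and 76.9 to 114 in runners (median 96.2) and missed the threshold (log2 fold change 0.67 ± 0.16, adjusted p = 0.111). Clock was lower in every runner (log2 fold change -0.41 ± 0.10, adjusted p = 0.124) and Nr1d1, which encodes the repressor REV-ERBα, higher in every runner (log2 fold change 0.46 ± 0.13, adjusted p = 0.158), and neither was called. Dbp, Clock and Nr1d1 were picked out after their values were seen. Of the 21 clock genes, 13 were positive, with a median of 0.16.

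The remaining falls were those of a kinase of the spliceosome, a predicted gene and a water channel. Prpf4b, a kinase that acts in spliceosome assembly (chr13:34875302-34906064, plus strand), was at 67.9, 74.96 and 90.96 CPM (lowest, median, highest) in the 7 cage libraries and 43.9, 50.6 and 63.4 CPM in the 6 runner libraries. It fell by 0.58 ± 0.10 on the log2 scale (adjusted p = 0.0102), with no overlap. Gm49359, a predicted protein-coding gene outside the rule for named genes, was at 4.86 to 8.25 CPM in cage libraries (median 6.60) and 3.59 to 4.79 in runners (median 4.00) (log2 fold change -0.69 ± 0.13, adjusted p = 0.0157). Aqp4, the water channel of astrocytes and fast muscle fibres, was at 8.63 to 27.1 CPM in cage libraries (median 19.7) and 4.31 to 17.8 in runners (median 6.18) and fell by 1.39 ± 0.27 (adjusted p = 0.0250). The groups overlapped for Aqp4: cage female replicate 1, with its low muscle share, had 8.63 CPM, and runner male replicate 1, with the highest muscle share (10.2%), had 17.8. Without cage female replicate 1 the log2 fold change of Aqp4 was -1.50 (adjusted p = 0.00900). Aqp4 was called in 5 of the 13 fits that left out 1 WT library. Without runner female replicate 2 and runner male replicate 3 it had -1.20 (adjusted p = 0.155).

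The lower genes with the smallest p beyond the threshold were not called. Smc6, of the SMC5/6 DNA repair complex, Luc7l3, a splicing factor, and Bdp1, of the RNA polymerase III initiation factor, had log2 fold changes of -0.49 ± 0.11, -0.54 ± 0.12 and -0.47 ± 0.10 (adjusted p = 0.0632, 0.0632 and 0.0695). The zinc finger gene Zfp948 (-0.66 ± 0.14), the microtubule-associated Nav3 (-0.59 ± 0.13) and the vascular ligand Angpt1 (-0.55 ± 0.13) had adjusted p = 0.0632, 0.0632 and 0.0809. For Zfp948 and Nav3 the groups did not overlap.

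Serpinb1a and Relb also rose. Serpinb1a, an inhibitor of neutrophil proteases, was at 5.37 to 9.04 CPM in cage libraries (median 6.17) and 8.97 to 21.7 in runners (median 12.2) (log2 fold change 1.11 ± 0.21, adjusted p = 0.0261). Relb, a subunit of the non-canonical NF-κB pathway, was at 6.71 to 10.1 CPM in cage libraries (median 8.53) and 8.99 to 14.6 in runners (median 12.7) (log2 fold change 0.57 ± 0.11, adjusted p = 0.0265). In both, the lowest runner was below the highest cage library, which was female replicate 1. Macrophage markers were positive for 18 of 20 with a median of 0.45, and none was called. Their summed level ran from 259 to 786 CPM in cage libraries (median 398) and from 310.4 to 794 CPM in runners (median 661). The lysosomal Cd68 was at 3.80 to 7.87 CPM in cage libraries (median 5.46) and 5.66 to 18.1 in runners (median 14.5) (log2 fold change 1.19 ± 0.33, adjusted p = 0.172) and Trem2 had 0.97 ± 0.39 (adjusted p = 0.403). Inflammatory mediators had a median of -0.07 and interferon-stimulated genes -0.10, with no call. Of 11 neutrophil markers 1 was abundant enough to test, and of 14 T, B and NK cell markers 4 were. Whether the macrophage level has a part in these calls was not tested.

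Stress genes were split. Of 27 heat shock and chaperone genes, 17 were positive with a median of 0.19. Hspa1b, an inducible HSP70, was higher in every runner (17.8 to 24.96 CPM in cage libraries (median 20.8) and 25.7 to 41.7 in runners (median 28.1)) and just missed the threshold (log2 fold change 0.54 ± 0.12, adjusted p = 0.0632), and the muscle small heat shock protein Hspb7 had 0.95 ± 0.29 (adjusted p = 0.225). Of 23 genes of the unfolded protein response, 18 were negative with a median of -0.13, led by the chaperones of the endoplasmic reticulum Hspa5 (-0.31 ± 0.12, adjusted p = 0.397) and Hsp90b1 (-0.25 ± 0.12, adjusted p = 0.478). Immediate early genes were negative for 17 of 22 with a median of -0.16, and those with the smallest p went in both directions (Junb (0.47 ± 0.15, adjusted p = 0.247) and Nr4a3 (-1.09 ± 0.39, adjusted p = 0.326)). No member of these 3 lists was called.

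Markers of the other cell types that a dissected tendon can hold gave no call apart from Krt80. Synovial and sheath fibroblast markers were positive for 12 of 15 with a median of 0.33. Their summed level ran from 805 to 1806 CPM in cage libraries (median 1459) and from 1139.7 to 4174 CPM in runners (median 2509), with Prg4 (above) and Pi16 (log2 fold change 0.75 ± 0.25, adjusted p = 0.269) as the members of smallest p. Endothelial markers were negative for 14 of 17 with a median of -0.12 and adipocyte markers for 11 of 13 with a median of -0.21, led by Lpl (-0.40 ± 0.18, adjusted p = 0.459). Angiogenesis and hypoxia genes were negative for 17 of 24, with Rgcc the 1 called member. Chondrocyte markers had a median of -0.14, mural cell markers 0.01, mast cell markers 0.23, nerve markers 0.06 and satellite cell markers 0.17.

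The runner libraries did not contribute evenly to the calls. Over the 20 higher genes, female replicate 1 was the lowest of the 6 runners in 10 and male replicate 1 in 5, while male replicate 2, the library with eGFP, was the highest in 8 and female replicate 2 in 7. Among cage libraries, female replicate 1 was the lowest in 8 of the 20. Called genes kept their sign under every alternative tried, and 10 were called in all 13 fits that left out 1 WT library: Plekho1, Gm35853, Ndrg4, Uchl1, Pde10a, Krt80, Fam214b, Rgcc, Sbk3 and Prpf4b. Mustn1 was kept in 12 of 13 (lost without runner male replicate 2) and Ucp2 in 11 of 13 (lost without runner female replicate 2 or runner male replicate 2). Gm49359 was lost without cage female replicate 2 or runner male replicate 2. The other 12 (Aqp4, Pon2, Serpinb1a, Ltbp2, Abat, Relb, Nfil3, Mid1ip1, Csrp3, Sbk2, Itga1 and Agrp) were kept in 2 to 6 of the 13. Of these, Nfil3 alone was kept without runner male replicate 2. With the mitochondrial rRNA share as a covariate 22 of the 25 were kept, and Ltbp2, Relb and Itga1 were lost, with log2 fold changes of 1.34 (adjusted p = 0.0880), 0.51 (adjusted p = 0.0784) and -0.43 (adjusted p = 0.0766). Without runner female replicate 2 and runner male replicate 3, 6 genes were called (Plekho1, Gm35853, Ndrg4, Uchl1, Pde10a and Fam214b), and these 6 were also the calls when cage female replicate 1 was left out as well. Without the library with eGFP, 11 genes were called. Cage female replicate 4 is the 1 WT library whose name has another prefix than the rest, and among the libraries with the more common prefix 11 genes were called. What the prefix stands for is not given in the sources used here.

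In females alone (3 runners, 4 cage) 1 gene was called and in males alone (3 and 3) 3 were, in both cases with few libraries. Plekho1 had log2 fold changes of 1.22 in females and 1.08 in males. The corresponding values were 2.19 and 1.93 for Uchl1 and 1.72 and 1.52 for Csrp3. The widest gap was that of Agrp, with 2.06 and 4.02. The sex-by-running interaction, tested in WT over all genes, called none by edgeR, DESeq2 or limma-voom, with 987 genes (5.15%) at an unadjusted p under 0.05 by edgeR. Its smallest p were those of Arnt2, Lrrc4c, Rnu11, Snora81 and Adamts8 (adjusted p = 0.911 for each). For Adamts8, a protease of the proteoglycan-cleaving family, the response in males minus that in females was -2.99 ± 0.77 (log2).

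Set beside the AMPKcKO mice, the same 25 genes went the same way. In the cKO comparison (6 runners, 6 cage) 8 genes were called (0.0418% of all genes), 6 of which were also called in WT, which is 24.0% of the WT calls and 75.0% of the cKO calls. These 6 were Plekho1, Gm35853, Ndrg4, Uchl1, Rgcc and Aqp4. Both comparisons have their own control libraries. All 25 had the same sign in cKO, 21 of them at an unadjusted p under 0.05 (13.6% of all genes), and 24 had a smaller fold change in cKO than in WT, where they were selected. The log2 fold change in WT and then in cKO was 1.15 ± 0.13 and 0.87 ± 0.13 for Plekho1, 1.28 ± 0.21 and 1.22 ± 0.22 for Rgcc and 2.95 ± 0.61 and 2.89 ± 0.64 for Agrp. It was 1.63 ± 0.34 and 0.37 ± 0.35 for Sbk2, 2.67 ± 0.45 and 1.48 ± 0.46 for Sbk3, 1.23 ± 0.23 and 0.58 ± 0.23 for Ucp2 and 0.57 ± 0.11 and 0.13 ± 0.11 for Relb. Muscle fibre genes had fold changes of mostly opposite sign between the genotypes: all 21 fast and all 13 slow fibre genes had a negative fold change in cKO, with medians of -0.51 and -0.54, against 17 and 12 positive in WT. This was not particular to muscle fibre genes. Fibrillar collagens were positive for 1 of 11 in WT and 8 of 11 in cKO. Nuclear oxidative phosphorylation subunits were so for 39 and 1 of 60. Macrophage markers kept their direction, with 18 and 19 of 20 positive. The muscle share of counts was 6.68% ± 1.25 in cKO cage libraries and 5.49% ± 2.07 in cKO runners (SD, n = 6 and 6), beside 6.45% and 7.88% in WT.

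The genotype-by-running interaction, the test of whether these responses differ, called no gene by edgeR, DESeq2 or limma-voom, with 1377 genes (7.19%) at an unadjusted p under 0.05 by edgeR. With the muscle covariate it called none by edgeR either, with 999 genes at an unadjusted p under 0.05. Without the covariate, the lowest adjusted p among the 25 genes was 0.672, and 6 of them were at an unadjusted p under 0.05. Genes with the smallest interaction p included Thrb, a thyroid hormone receptor (WT 0.31 ± 0.12, cKO -0.46 ± 0.13), Efcc1 (WT -0.86 ± 0.28, cKO 0.74 ± 0.28), Fam13b (WT -0.32 ± 0.09, cKO 0.20 ± 0.09) and Sptbn5, a β-spectrin (WT -0.58 ± 0.49, cKO 2.17 ± 0.50), each at an adjusted p of 0.672.

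**Figure D5:**
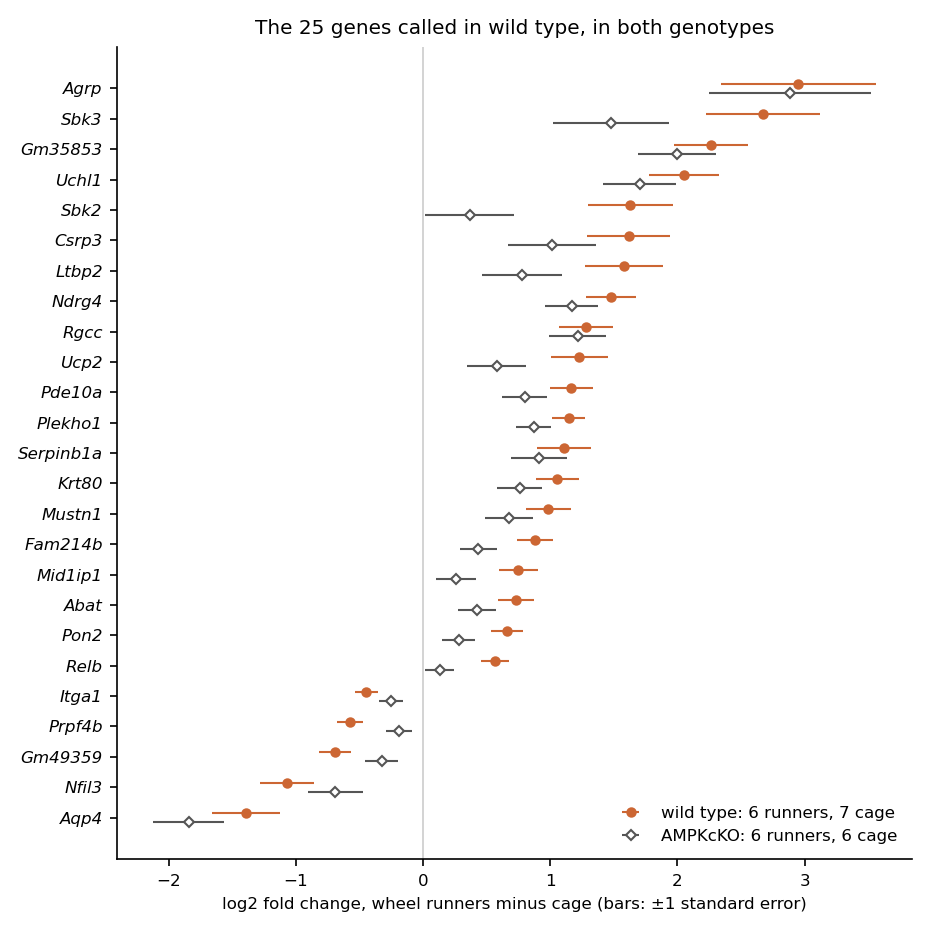
Log2 fold change of runners minus cage (x axis) for the 25 genes called in WT, in WT (filled orange circles, 6 runners and 7 cage libraries) and in AMPKcKO (open grey diamonds, 6 and 6). Bars are ±1 standard error. All 25 lie on the same side of 0 in both genotypes, and Aqp4 (-1.39 and -1.84) is the gene with the larger change in cKO.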

How the data were processed

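Whole Achilles tendon RNA was sequenced in 25 libraries. The deposited gene-level expected counts were whole numbers for every gene, and the authors' FPKM values are in a second table of the same libraries. The tools given in the submitters' processing notes are RSEM 1.3.3, STAR 2.7.8a, FastQC 0.11.8 and cutadapt 2.3, and the build is GRCm38 (mm10). Both tables hold 55487 genes and 4 reporter entries, which were left out of the gene tests.

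The count analysis used edgeR 4.0.16 under R 4.3.3: filterByExpr over the groups of genotype and activity (19155 genes kept), TMM scaling, and quasi-likelihood F-tests in a model of the 4 group means and sex over all 25 libraries, which then share 1 estimate of the spread. The interaction of sex with running used means per sex. P-values are two-sided, adjusted by Benjamini-Hochberg, and called under 0.05. CPM are TMM-scaled. A count of 0 allows up to 3 counts of a library's total, and such floors cover counting error only. Shares of counts were compared by exact permutation. Gene positions are GENCODE's and promoters RefSeq's, both on GRCm38. Printed genes followed a rule: the called genes with the smallest p (up to 15 in each direction, or 6 not called), called members of each list or up to 2 not called, and 5 genes of each interaction, without predicted genes. Genes outside it are said to be so, and 1 gene within it is not reported here. The members and gene lists were chosen with earlier results of these data known. Alternatives were RLE scaling, other filters, DESeq2 1.42.0, limma 3.58.1 (voom with quality weights, or log2 FPKM with 1 or 0.1 added), covariates for muscle genes and mitochondrial rRNA, a replicate block, no sex term, and subsets of libraries.

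Tested on simulated counts of equal design, the WT comparison found 76 of 100 genes changed 2-fold and 99 of 100 changed 4-fold. For the genotype-by-running interaction the numbers were 47 and 94, and for sex by running 11 and 78. Unchanged genes called numbered 11, 3 and 3 in the same order. The counts were drawn independently for each gene, with no library standing apart, and only genes above a set mean level were changed. Recovery in the real libraries, and for genes of low level, can therefore differ.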

Additional observations from a re-analysis of the deposited data

Results flagged for a closer look

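In 238 groups of values (the genes given here in WT cage libraries and in WT runners, with both shares of counts), 26 held 1 library far from the others by Dixon's criterion, where chance gives about 1 group in 20. The groups are not independent, because genes such as those of muscle vary together across libraries, so this number is not a test. WT cage female replicate 1 accounted for 15 of the 26. Its muscle share was 2.66% of counts. Among muscle fibre genes it was low for Myh1 (1164 CPM), Myl1 (646), Myl2 (478) and Tnni1 (137). It was also low for Uchl1 (2.59 CPM), Aqp4 (8.63), Fam214b (9.41), Adamts8 (2.34), Col22a1 (17.6), Tbc1d4 (30.3), Crim1 (50.7) and mt-Nd5 (2802), and high for Pi16 (118) and Acly (71.8).

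Among the other cage libraries, female replicate 2 was low for Nog (0.775 CPM), and female replicate 3 was low for Col1a1 (1849 CPM) and Mkx (12.9). Among runners, female replicate 1 was low for Gm35853 (2.52 CPM), although still above every cage library. Female replicate 2 was low for Col1a1 (2744), Ifih1 (5.53) and Cidea (0.489). Male replicate 3 was low for Slc16a1 (29.1) and Ripor1 (23.4), male replicate 1 was high for Bdp1 (52.2), and male replicate 2 was high for the cartilage and tendon gene Cnmd (0.701).

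Reporter entries lie outside the gene tests. WT runner male replicate 2 had 119 CPM of eGFP and no Cre counts, where the other 12 WT libraries had at most 0.02 CPM of eGFP. Among cKO libraries, eGFP was at 84.3 to 264 CPM in the 6 runners and 0 to 163 CPM in the 6 cage libraries. The cKO cage female replicate 3 had no eGFP and no Cre counts, where every other cKO library had both. What this says of the labels of these libraries was not tested.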

How the results depend on the processing

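For running against cage in WT (25 calls), leaving out 1 WT library gave 11 to 36 calls. The counts that moved by over 1.5 times were those without runner male replicate 2 (11), cage female replicate 2 (12), cage female replicate 4 (13), cage male replicate 3 (14) and cage male replicate 1 (15). Other counts were 197 with no filter on low counts, 321 with the muscle covariate (202 higher, 119 lower), 157 by DESeq2 (81 higher, 76 lower), 90 by limma-voom (47 higher, 43 lower), 14 by limma on log2 FPKM with 0.1 added, 12 in the WT libraries alone, 11 among libraries with the more common name prefix, 11 without the eGFP library, 6 without the 2 runners that stood apart, 1 in females and 3 in males. Leaving out 3 libraries (those 2 and cage female replicate 1), an alternative chosen after seeing the data, gave 6. The cause of these shifts was not tested.

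For running in cKO (8 calls), counts were 574 with no filter, 19 with the muscle covariate, 5 with the mitochondrial rRNA covariate, 3 with the more common name prefix, 208 by DESeq2, 384 by limma-voom, and 5 and 3 by limma on log2 FPKM with 1 and 0.1 added. WT libraries enter that test only through the shared spread, the scaling and the sex term. Even so, it gave 16 calls without the 2 WT runners, 132 without the 3 WT libraries and, leaving out 1 WT library, 6 to 60 (60 without cage female replicate 1, 18 without runner male replicate 3). Both interactions had 0 calls except with no filter (65 for genotype, 173 for sex).

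Replicate numbers recur in both groups. The same-numbered cage and runner libraries had correlations of their deviations from -0.05 to 0.16, and those with different numbers from -0.17 to 0.11. The highest was that of female replicate 1 in both groups. The ranges overlapped, and the numbers were not taken as pairs. With a replicate block, 12 genes were called in WT and 1 in cKO.

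The muscle share difference of 1.42 percentage points passed the exact permutation test without runner male replicate 3 (1.96, p = 0.0467). Leaving out 1 library gave 0.79 to 1.96. The mitochondrial rRNA difference of -3.30 passed the exact permutation test without cage female replicate 4 (-4.47, p = 0.0303), -4.47 to -2.63 over all 13, and was -2.15 without the 2 runners that stood apart. Of the 119 genes that the naming rule reaches, 13 changed sign under at least 1 alternative, none of them called. Among the genes given with a fold change, Ssc5d changed sign (0.24 in females alone, and 0.012 and 0.0099 by limma on log2 FPKM with 1 and 0.1 added). Ssc5d is given beside Sbk2 and is not among the 119. Genes near the filter, such as Agrp and Sbk3, rest on few counts, and in simulated counts changes of 2-fold were found less often than those of 4-fold.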

Other observations

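Lists not yet described held no called gene in WT runners. Antioxidant and NRF2 target genes were positive for 15 of 23 with a median log2 fold change of 0.05, and the members with the smallest p were the sulfiredoxin gene Srxn1 (0.41 ± 0.20, adjusted p = 0.519) and Sod1 (0.27 ± 0.14, adjusted p = 0.525), the cytosolic superoxide dismutase. Of the autophagy and mTORC1 genes, 14 of 25 were positive, led by the autophagy receptor Sqstm1 (0.34 ± 0.14, adjusted p = 0.428) and the mTORC1 scaffold Rptor (0.26 ± 0.12, adjusted p = 0.445). Genes of muscle atrophy and the glucocorticoid response were negative for 15 of 17 with a median of -0.12, led by the glucocorticoid targets Fkbp5 (-0.56 ± 0.27, adjusted p = 0.516) and Sgk1 (-0.38 ± 0.20, adjusted p = 0.553).

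Proliferation genes were even, with 12 of 24 positive and a median of 0.01, and the replication helicase gene Mcm6 (0.31 ± 0.12, adjusted p = 0.362) had the smallest p. Markers of bone cells were positive for 7 of 9. The osteocalcin gene Bglap2 had the smallest p among them (adjusted p = 0.354) on at most 0.868 CPM in any runner. Markers of mural cells were led by Cspg4 (0.37 ± 0.13, adjusted p = 0.320) and Mylk (-0.40 ± 0.22, adjusted p = 0.560), and those of satellite cells, the stem cells of muscle, by Chodl (-0.48 ± 0.26, adjusted p = 0.581) and Pax7 (0.48 ± 0.30, adjusted p = 0.626). In every list named in these paragraphs the ranges of runners and cage libraries overlapped for the genes given.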
